A study of Homo sapiens with 6 samples.

Results

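Transcripts of 40 integrin chain and focal adhesion genes were followed in NCI-H1299, a human lung carcinoma cell line, with and without forced expression of MTSS1. The genes were chosen by name: 14 integrin alpha chains, 8 integrin beta chains and 18 adaptors and kinases. Earlier results of these data were known when they were chosen. All 40 were found among the 64253 gene identifiers of the deposited count table, and 35 had enough reads to be tested. The 3 MTSS1 overexpressing libraries came from cells that carried an MTSS1 plasmid with an mCherry tag, and had gone through hygromycin selection and a cell sort. The 3 wild type libraries came from the H1299 line labelled wild type, and no group with a control plasmid was analysed here. MTSS1, the plasmid, selection and sorting therefore cannot be told apart. The labels name HEK293T cells in the transfection step and leave unsaid whether replicates are independent cultures; the p-values reflect only the spread between these libraries, which may be technical.

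Integrins are receptors of an alpha and a beta chain that hold cells to the extracellular matrix. Talins and kindlins bind the beta chain tail, and vinculin, paxillin, tensins and the ILK, PINCH and parvin complex join the receptor to actin. Focal adhesion kinase and Src phosphorylate partners at the same site. MTSS1 is an I-BAR protein that bends membrane and binds actin.

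Total counts were 13883380 to 25741708 in the MTSS1 overexpressing libraries and 19018751 to 29479453 in the wild type libraries. MTSS1 itself had 550.3, 544.2 and 568.1 CPM (read counts scaled to a common library size) in the overexpressing libraries and 24.2, 18.0 and 24.3 CPM in wild type, a log2 difference of 4.65 (SE 0.13) with edgeR adjusted p = 3.6e-07. The counts do not separate plasmid from endogenous MTSS1. The first principal component of log2 CPM, with 34.8% of the variance, set replicate 1 of both groups apart, and the second, with 32.9%, separated the groups. Of 8 lung adenocarcinoma markers, SFTPB and SFTA3 were at 0 in every library and none of the 4 tested was called. MUC1 averaged 3.55 and 3.82 CPM in overexpressing and wild type cells, NKX2-1 2.63 and 1.20, KRT7 1.77 and 0.857, and EPCAM 0.881 and 0.557, the last 3 with separate groups. Of 4 mesenchymal markers, the filament VIM averaged 4703.8 and 4400.2 CPM in overexpressing and wild type cells, CDH2 81.9 and 84.7, and ZEB1 66.0 and 64.7. FN1, also an integrin ligand, averaged 53.3 and 35.9 CPM and alone was called, higher (edgeR adjusted p = 0.038). Leaving out any 1 library ended the FN1 call, with edgeR adjusted p up to 0.14. Of 4 markers of HEK293-type kidney lines, LIN28B averaged 213.3 and 290.8 CPM in overexpressing and wild type cells. NEFL averaged 4.58 and 4.42 CPM and NEFM 5.39 and 5.20 CPM. PAX2 had 2 and 6 counts, and none of the 3 tested was called. Whether HEK293T cells were present was not tested.

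Of the 35 tested genes, ITGAM rose and ITGA6 and LIMS1 fell in MTSS1 overexpressing cells. ITGAM encodes the alpha chain of the leukocyte integrin Mac-1, ITGA6 a laminin-binding alpha chain, and LIMS1 the PINCH protein that pairs with integrin-linked kinase. A gene was called when its Benjamini-Hochberg adjusted p over all 16091 tested genes was under 0.05 in edgeR's quasi-likelihood test. The 3 calls were 8.57% of the 35 genes, beside 4.28% of all tested genes. The single higher call stood beside 1.82% of all genes called higher, and the 2 lower calls beside 2.45% called lower. The median log2 fold change was -0.06 for the 35 genes, with 14 positive and 21 negative values, and 0.00 for all tested genes. In 14 of the 35 genes the libraries of the groups did not overlap, and the same held for 25.5% of all tested genes.

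**Figure D1:**
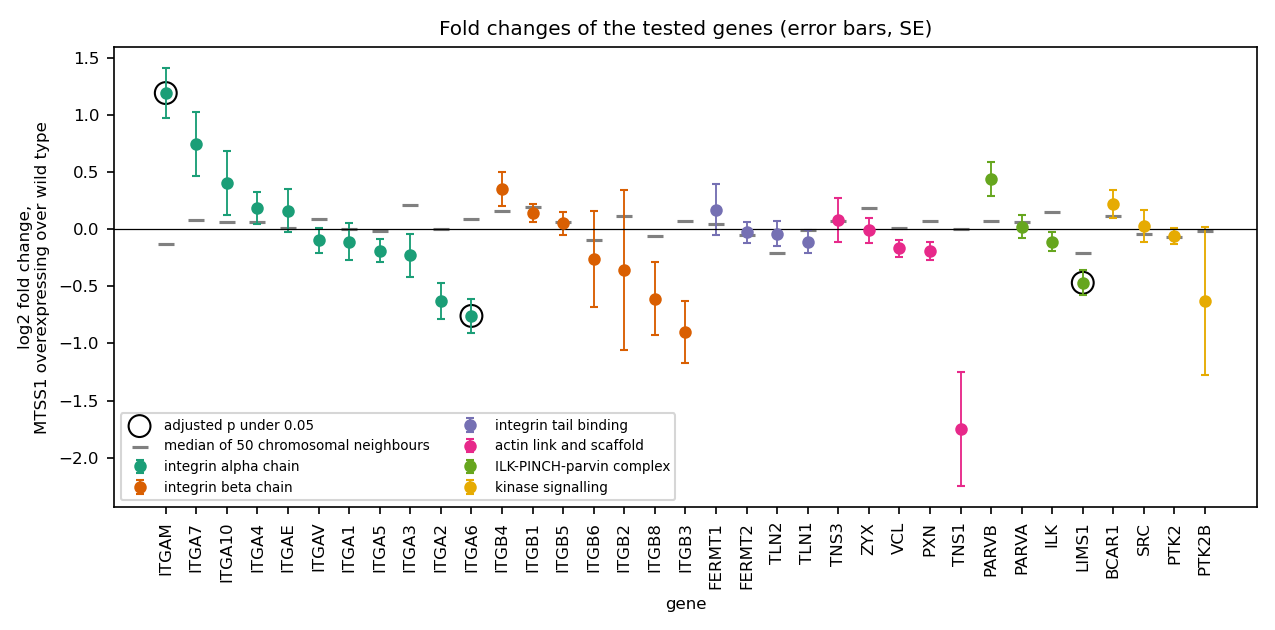
Log2 fold changes (vertical axis, MTSS1 overexpressing over wild type) of the 35 tested genes, coloured by role, with SE as error bars; grey dashes are the median of each gene's 50 nearest tested genes on its chromosome. Circles mark the 3 genes with edgeR adjusted p under 0.05, of which ITGAM lies above 0 and ITGA6 and LIMS1 below.

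The windows before the transcription start of ITGAM and ITGA6, the alpha chains that moved in opposite directions, are shown as the sequence before one start of each gene. Both are from RefSeq on GRCh38.p14, plus strand, each the 250 bases before a start, in lower case with matches to the searched motifs in capitals. ITGAM lies at chr16:31259725-31259974 and ITGA6 at chr2:172427086-172427335, the first of the ITGA6 starts in RefSeq. Which start these cells used was not measured.
ITGAM: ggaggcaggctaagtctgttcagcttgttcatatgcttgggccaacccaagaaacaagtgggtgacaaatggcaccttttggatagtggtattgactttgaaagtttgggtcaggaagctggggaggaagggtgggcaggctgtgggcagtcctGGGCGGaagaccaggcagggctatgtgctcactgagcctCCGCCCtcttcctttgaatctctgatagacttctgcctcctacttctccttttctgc
ITGA6: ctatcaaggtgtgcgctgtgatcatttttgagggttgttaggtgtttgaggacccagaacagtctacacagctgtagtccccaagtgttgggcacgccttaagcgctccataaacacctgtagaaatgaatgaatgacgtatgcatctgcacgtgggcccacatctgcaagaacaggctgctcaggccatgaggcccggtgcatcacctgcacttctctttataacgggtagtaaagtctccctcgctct

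The capitals in the ITGAM window are 2 GC boxes (GGGCGG, either strand), at 96 and 57 bases before the start, and the ITGA6 window shown held none of the motifs. A second ITGA6 window, before the later RefSeq start at the end of chr2:172427336-172427585, held 3 GC boxes, at 217, 106 and 55 bases before that start, and is not printed because it holds transcribed bases of the longer transcript. The pair therefore does not differ in having GC boxes once both ITGA6 starts are counted. Of the 40 genes, 28 matched the RefSeq promoter table, with 48 windows, and all motifs were searched on both strands. GC boxes stood in 52.1% of these windows and in 42.6% of all 35116 windows. The AP-1 motif TGANTCA stood in 4.17% of the windows against 6.57% of all, the TEAD motif GGAATG in 14.6% against 11.9%, and the CArG box in 2.08% against 1.16%. A kB motif of NF-kB, the factor named in the study's title, was searched as GGNNTTTCC and found in 10.4% of the windows against 5.48% of all. This short form was added after a longer one, with 1 more G in front, had been counted at 4.17% against 1.73%. The short form includes every match of the longer one, which was in PARVB and ZYX. Matches in so few windows are a description only.

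Levels of different genes can be compared only per length, so CPM was divided by the length of the main GENCODE transcript. On that scale ITGA3, a laminin receptor chain, stood first at 220.4 CPM per kilobase over the 6 libraries. The scaffold PXN followed at 162.1 and ITGB1, the common beta chain, at 159.0 CPM per kilobase. VCL, the actin linker vinculin, had 127.8, ITGA6 109.2, ZYX 101.1 and the talin TLN1 74.0 CPM per kilobase. The kinases PTK2 and SRC had 59.8 and 7.30 CPM per kilobase. Neighbours in this order such as PXN and ITGB1 lay close together, and their order was not tested. TLN1 exceeded its paralog TLN2, at 2.11 CPM per kilobase, and the kindlin FERMT2, at 32.3, exceeded FERMT1, at 3.76.

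**Figure D2:**
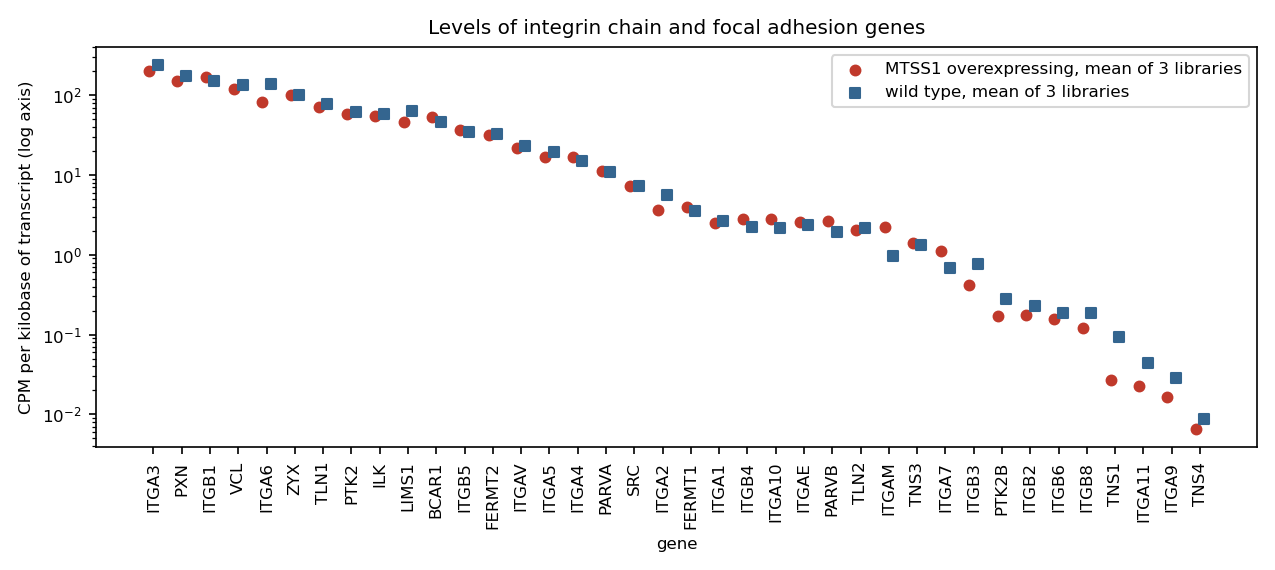
Mean CPM per kilobase of transcript (log axis) in MTSS1 overexpressing (circles) and wild type (squares) cells, for the genes with counts in both groups, ordered by the mean of all libraries. ITGA3 leads at 220.4 CPM per kilobase, and the order spans levels from there to TNS4 at 0.00771.

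ITGA6, a chain that pairs with the beta chains of ITGB1 or ITGB4, had 501.5, 366.2 and 496.7 CPM in MTSS1 overexpressing cells, against 835.6, 625.4 and 855.8 CPM in wild type cells. All overexpressing libraries were below all wild type libraries, and replicate 2 was the lowest in both groups. The means were 454.8 ± 76.8 and 772.3 ± 127.6 CPM (SD, n = 3 each), giving -0.76 on the log2 scale (SE 0.15) and edgeR adjusted p = 0.027. The 50 nearest tested genes on chromosome 2 had a median log2 fold change of 0.09. With that median as an offset, under which 2.09% of all genes and 2 of the 35 were called, ITGA6 had edgeR adjusted p = 0.026. The call was lost when wild type replicate 1 or 3, or overexpressing replicate 2 or 3, was left out, with edgeR adjusted p up to 0.10. In bulk RNA, fewer cells with a transcript and less transcript per cell cannot be told apart. Summed CPM of 6 epithelial markers moved the same way, at 253.7 to 465.3 in overexpressing and 569.0 to 850.1 in wild type libraries. KRT18 and KRT8 made up most of the sum. KRT18 averaged 299.0 and 521.7 CPM in overexpressing and wild type cells and was not called (edgeR adjusted p = 0.061). Of the 3 tested markers only KRT8 was called, lower, at 49.6 and 164.8 CPM. Leaving out overexpressing replicate 3 ended the KRT8 call (edgeR adjusted p = 0.055), and leaving out any other library kept it. CLDN4 averaged 0.376 and 0.531 CPM, and CDH1, CLDN7 and KRT19 were at or near 0. Outside this list, KRT7 and EPCAM averaged higher in overexpressing cells and MUC1 lower, none of them called. The part of these keratins in the ITGA6 difference was not tested.

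ITGA2, a collagen-binding alpha chain, had 30.7, 24.9 and 31.3 CPM in MTSS1 overexpressing cells and 46.6, 34.6 and 52.9 CPM in wild type cells. The groups did not overlap. At -0.63 (SE 0.16) its log2 fold change did not pass (edgeR adjusted p = 0.065). ITGA2 was called by DESeq2 (adjusted p = 0.0054), by edgeR without the filter on low counts (adjusted p = 9.0e-05) and by edgeR without wild type replicate 2 (adjusted p = 0.034). ITGA7, another laminin-binding chain, had 4.92, 5.65 and 3.40 CPM in overexpressing and 3.02, 2.08 and 3.27 CPM in wild type cells. Its groups were separate by a narrow margin, with log2 fold change 0.74 (SE 0.28, edgeR adjusted p = 0.17). ITGA3 averaged 992.5 ± 202.2 and 1161.9 ± 305.8 CPM (SD, n = 3 each), with overlapping groups and log2 fold change -0.23, which was 0.00 without wild type replicate 2.

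ITGAM had 8.81, 6.03 and 9.65 CPM in MTSS1 overexpressing cells, against 3.66, 3.14 and 3.90 CPM in wild type cells. Every overexpressing library was above every wild type library, at a low level in both. The means were 8.16 ± 1.89 and 3.57 ± 0.389 CPM (SD, n = 3 each), giving 1.19 on the log2 scale (SE 0.22) and edgeR adjusted p = 0.021. The neighbours on chromosome 16 had a median of -0.13, and the offset gave edgeR adjusted p = 0.021. Leaving out overexpressing replicate 2 kept the call, and leaving out any other library ended it, with edgeR adjusted p up to 0.089. ITGB2, the beta chain that ITGAM needs at the leukocyte surface, had 0.220, 0.999 and 0.440 CPM in overexpressing and 0.159, 0.827 and 1.20 CPM in wild type cells, with overlapping groups. ITGAX, the neighbouring leukocyte alpha chain, averaged 1.57 and 0.906 CPM, with edgeR adjusted p = 0.33. None of the 4 tested among 7 leukocyte markers was called, their sums were 3.82 to 5.23 and 3.68 to 4.70 CPM, and the pan-leukocyte marker PTPRC averaged 0.675 and 0.470 CPM in overexpressing and wild type cells.

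Summed over the 14 alpha chains, transcripts had 354.5 ± 25.8 CPM per kilobase in MTSS1 overexpressing and 447.3 ± 37.2 in wild type cells (SD, n = 3 each). The laminin-binding chains made up most of either sum, 80.3% ± 2.58 in overexpressing and 83.9% ± 2.13 in wild type cells. ITGA6 alone was 23.1% ± 5.16 and 31.1% ± 7.33 of the alpha sum. By replicate number its share was 24.9%, 17.2% and 27.0% in overexpressing and 33.4%, 22.9% and 37.1% in wild type libraries, so the groups overlapped while the overexpressing library was lower at each number. The 8 beta chains summed to 206.7 ± 3.17 and 189.5 ± 14.3 CPM per kilobase, of which ITGB1 was 80.7% ± 0.797 and 79.8% ± 1.48. The alpha and laminin-binding sums hold ITGA6, so they are no separate evidence of its change, and none of the sums or shares was tested.

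**Figure D3:**
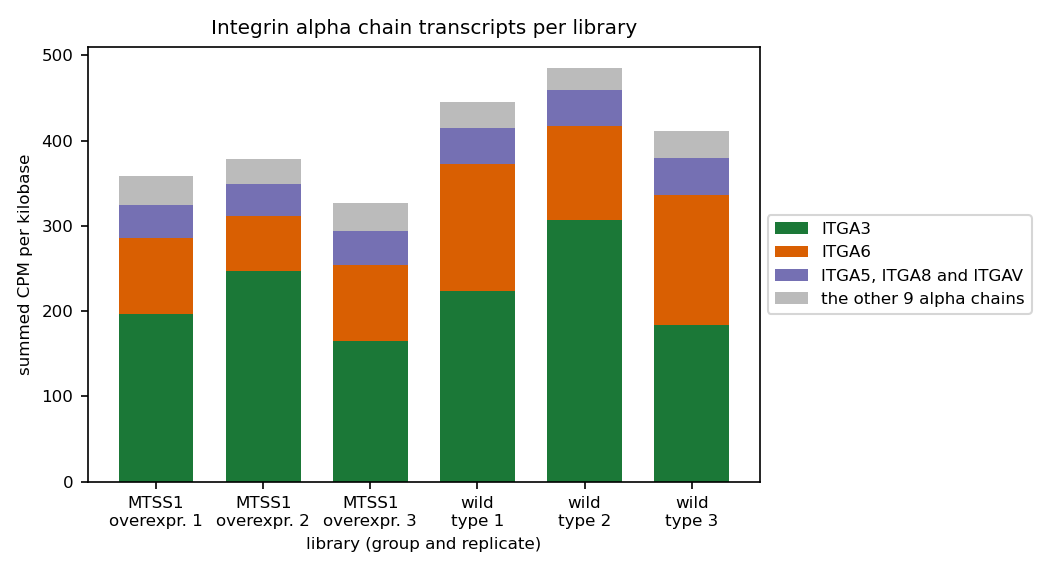
Summed CPM per kilobase of the 14 integrin alpha chains in each library, stacked by chain, with MTSS1 overexpressing libraries on the left. The stacks reach 327.1 to 378.3 in overexpressing and 411.1 to 485.4 in wild type libraries, and ITGA3 and ITGA6 fill most of each.

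No beta chain passed the test. ITGB3, which pairs with ITGAV in vitronectin binding, had 1.76, 1.73 and 1.44 CPM in MTSS1 overexpressing cells and 2.86, 3.57 and 2.74 CPM in wild type cells. The groups did not overlap, but the fold change, -0.90 on the log2 scale (SE 0.27), gave edgeR adjusted p = 0.095. Of its exonic bases, 51.6% are shared with the same-strand gene AC068234.1, which had 0 counts. How the authors' counting assigned reads over the shared bases was not tested, so the ITGB3 level may be understated. ITGB1 averaged 631.6 ± 14.6 and 571.8 ± 40.7 CPM, log2 fold change 0.14, and ITGB4, the hemidesmosome partner of ITGA6, averaged 16.8 ± 0.826 and 13.1 ± 2.30 CPM, log2 fold change 0.35. ITGB8, a partner of ITGAV, averaged 1.06 ± 0.0360 and 1.61 ± 0.209 CPM, log2 fold change -0.61. In each of these 3 genes the groups were separate and the call failed, with edgeR adjusted p of 0.38, 0.23 and 0.34. For ITGB1 the margin was narrow, with the lowest overexpressing library at 622.1 CPM and the highest wild type library at 614.2 CPM. The other alpha and beta chains tested had log2 fold changes between -0.36 and 0.40.

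LIMS1 had 83.8, 74.5 and 97.8 CPM in MTSS1 overexpressing cells and 115.6, 111.2 and 127.6 CPM in wild type cells, with no overlap. The means were 85.4 ± 11.7 and 118.1 ± 8.48 CPM (SD, n = 3 each), giving -0.47 on the log2 scale (SE 0.11) and edgeR adjusted p = 0.046. Its neighbours on chromosome 2 had a median of -0.21, and with that offset LIMS1 had log2 fold change -0.26 and edgeR adjusted p = 0.30. The call also ended without any one library other than overexpressing replicate 3, with edgeR adjusted p up to 0.16. The near copies LIMS3 and LIMS4 had 0 counts, and how the authors' counting assigned reads shared with these copies was not tested. ILK, the kinase-like partner of LIMS1, averaged 112.3 ± 3.31 and 121.0 ± 8.09 CPM, log2 fold change -0.11, and 68.1% of its exonic bases overlap the opposite-strand gene TAF10. PARVB, an actin-binding parvin, averaged 14.3 ± 2.22 and 10.5 ± 0.495 CPM, log2 fold change 0.44, and PARVA 97.0 ± 12.4 and 95.4 ± 4.29 CPM. ILK and PARVB had separate groups, with edgeR adjusted p of 0.53 and 0.14. For ILK the margin was narrow, with the highest overexpressing library at 114.7 CPM and the lowest wild type library at 115.4 CPM.

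Among actin linkers, VCL averaged 659.9 ± 13.9 CPM in MTSS1 overexpressing and 742.9 ± 18.4 CPM in wild type cells, log2 fold change -0.17. PXN averaged 572.6 ± 33.5 and 654.8 ± 35.0 CPM, log2 fold change -0.19. Both had separate groups and neither passed, with edgeR adjusted p of 0.24 and 0.23. ZYX, TLN1, TLN2, FERMT1, FERMT2 and TNS3 had log2 fold changes between -0.11 and 0.17. TNS1, an actin-binding tensin, is named here because, as seen after the values were known, it had the most negative log2 fold change of the 35, at -1.75 (SE 0.50), with edgeR adjusted p = 0.086. It rests on 19 counts in overexpressing and 72 in wild type libraries, with 0.220, 0.231 and 0.400 CPM against 1.27, 0.628 and 1.09 CPM. Of the kinase group, PTK2B had 0.0734, 1.54 and 0.800 CPM in overexpressing and 1.17, 1.72 and 1.05 CPM in wild type cells. Overexpressing replicate 1 was far below the rest, the groups overlapped, and edgeR adjusted p was 0.67. PTK2, the focal adhesion kinase, averaged 290.3 ± 4.28 and 302.7 ± 12.1 CPM, and PTK2, SRC and the scaffold BCAR1 had log2 fold changes between -0.06 and 0.22.

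**Figure D4:**
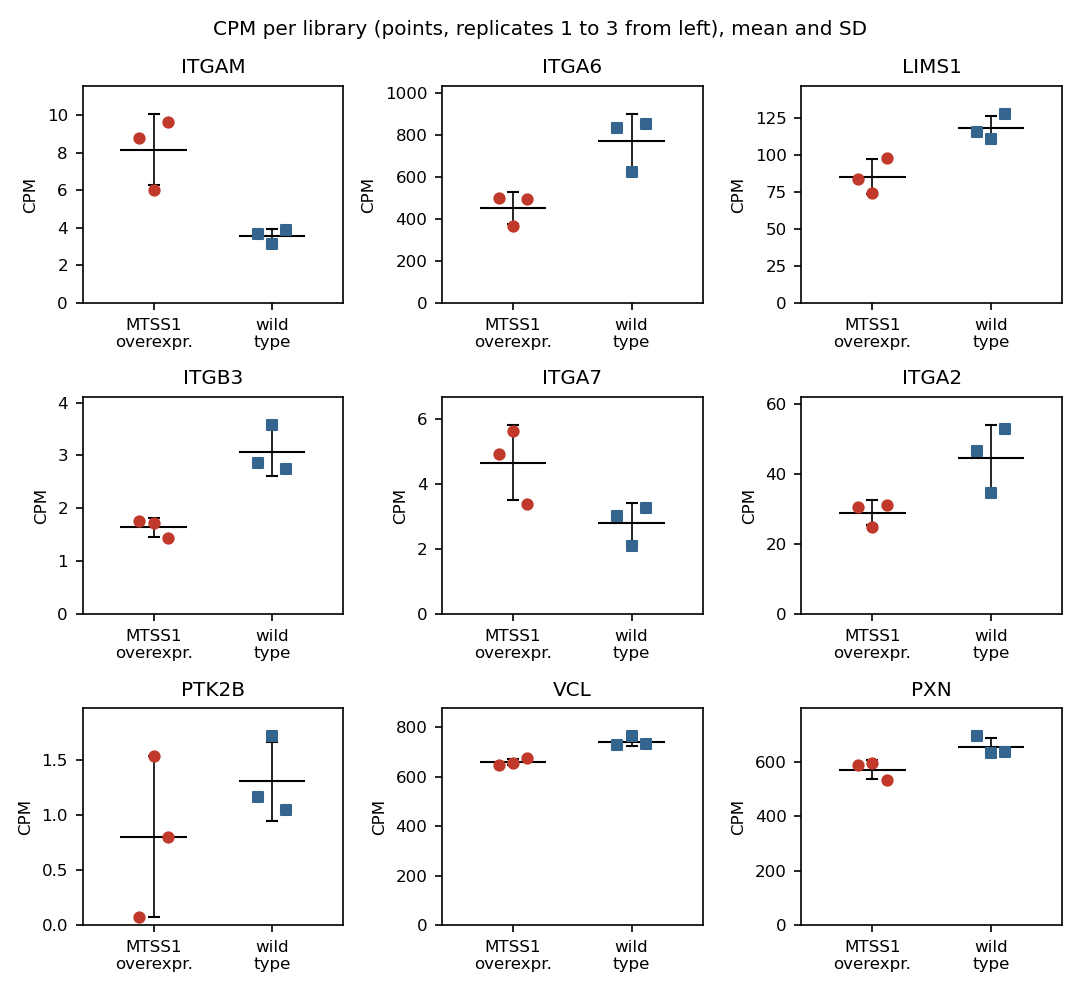
CPM in each library (points, linear axes from 0) for 9 genes, with MTSS1 overexpressing libraries on the left and the mean and SD in black. The libraries are separate by group in 8 of the genes and overlap in PTK2B. The genes were picked by call, fold change or separate groups, so this count follows from the choice. Groups were separate in 14 of the 35 tested genes and in 25.5% of all tested genes.

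Labels give the libraries serial numbers in 3 neighbouring pairs of an overexpressing and a wild type library, without saying that they were handled together. With the pair as a block, 14 of the 35 genes were called by edgeR's test, 6 higher and 8 lower, beside 22.7% of all tested genes. The higher ones were ITGAM, ITGA4, ITGA10, ITGB4, PARVB and BCAR1, and the lower ones ITGA2, ITGA3, ITGA6, ITGB3, VCL, PXN, LIMS1 and TNS1. With the block the edgeR adjusted p was 0.00032 for ITGA2, 0.0056 for ITGA3 and 0.0499 for ITGA4. ITGA3, with overlapping groups, was lower in the overexpressing library of all 3 pairs. The log2 ratio within pairs was -0.74, -0.77 and -0.79 for ITGA6, and 1.27, 0.94 and 1.30 for ITGAM.

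The 5 genes with too few reads to test were ITGA8, with 0 counts in every library, and ITGA9, ITGA11, ITGB7 and TNS4. ITGA9 had 9 and 14 counts, ITGA11 5 and 12, and TNS4 2 and 3, over the overexpressing and wild type libraries. ITGB7 had 0 counts in overexpressing and 7 in wild type cells. The ratio was 1.99-fold when 3 counts over the group stood in for the 0, without the uncertainty of the 7 counts, and was not tested. Of the ITGB7 exonic bases, 42.1% overlap the opposite-strand gene ZNF740. Counts of the broadly expressed B2M were 23 and 34, so a value near 0 is given only as listed.

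Genes around these receptors came from 6 further lists, and 21 of their 162 tested genes were called, 11 higher and 10 lower, beside the 4.28% of all tested genes called, 1.82% higher and 2.45% lower. The lists were chosen with earlier results of these data known, so these shares are a description only. Of 35 tested extracellular ligands, 4 rose and 4 fell, which is 22.9% of them. ICAM1, a ligand of leukocyte integrins, averaged 8.29 ± 1.93 CPM in overexpressing and 38.8 ± 4.72 CPM in wild type cells with edgeR adjusted p = 0.00093 and log2 fold change -2.24. COL6A1 had a log2 fold change of 0.69, LTBP3 -0.72 and LAMA4 -1.65. Of 41 other adaptors, 3 rose and 2 fell, among them SYNM (-0.63), ELMO1 (1.06) and FLNA (0.78), whose neighbours had a median of 0.68 and whose offset edgeR adjusted p was 0.78. Of 28 activation and trafficking regulators none rose and SDC4 (-0.44) and RAB11A (-0.35) fell. Of 26 further kinases and phosphatases PAK1 (-0.53) fell. With the neighbour offset, 2 ligands were called higher and 3 lower, 1 adaptor higher and 1 lower, and 1 regulator lower. Of all tested genes, 2.09% were called with that offset. None of the 26 kinases and phosphatases, PAK1 included, was called with the offset. Of 3 tested integrin chains and relatives outside the 40, ITGBL1 rose, at 2.55 ± 0.759 and 0.675 ± 0.136 CPM.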

How the data were processed

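Poly(A) RNA of 3 MTSS1 overexpressing and 3 wild type libraries was read with single reads of a directional kit, per the labels' protocols. The deposited table holds raw read counts per Ensembl gene identifier. HISAT2 2.1.0, HTSeq, bcl2fastq and GRCh38 are named in the submitters' processing notes; neither annotation release nor strand setting is given in the sources used here. Symbols, coordinates and lengths were taken from GENCODE release 29, which may differ from the authors' annotation.

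Genes were filtered with filterByExpr (minimum count 10), scaled by TMM and tested with edgeR 4.0.16 (R 4.3.3) by glmQLFit and glmQLFTest, with Benjamini-Hochberg adjustment over 16091 genes and a threshold of 0.05; SE is the log2 fold change divided by the root of F. The procedure was tested on data simulated with a common dispersion and without pairs of libraries. That test cannot show how pairing would affect the calls. Alternatives were DESeq2 1.42.0, other scalings, no filter, a block, each library left out, replicate 1 of both groups left out, and the median of 50 neighbours as offset. No 2 libraries of a group looked like 1 library deposited again, since chi-square values over genes were 14.7 to 28 times their degrees of freedom. Deviations from group means correlated at 0.661, 0.34 and 0.38 within the pairs of neighbouring serial numbers and at -0.405 to 0.104 between others. Deviations sum to 0 within each group, so positive values within pairs push the others down, and the contrast is partly built in. The labels do not state such pairing, so the fit without the block is given first.

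Genes given with every library's value were those called and the 6 with the largest absolute log2 fold changes at a mean of at least 1 CPM; other genes at that level with separate groups have group means. Up to 4 called genes per further list were named by adjusted p. The separate results of 1 further list and 1 gene are not reported here. The 40 genes, the lists and the motifs were chosen with earlier results of these data known.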

Additional observations from a re-analysis of the deposited data

How the results depend on the processing

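Of 453 recomputed log2 fold changes of the 35 tested genes, 397 kept direction and side of the threshold, 18 lost the call, 14 gained it and 24 changed sign, all of these past the threshold in neither fit. The count of all genes called, 688 of 16091 tested, was 1260 with DESeq2, 3651 with the block and 337 with the neighbour offset. It was 1489 of 28676 tested without a filter on low counts and 132 of 16359 without replicate 1 of both groups. Leaving out 1 library gave 145 to 346, with 16493 to 16587 genes tested. For the 35 genes the 3 calls (1 higher, 2 lower) became 14 (6 higher, 8 lower) with the block and 0 (0 higher, 0 lower) without replicate 1 of both groups, the offset left 1 lower, and DESeq2 and the fit without a filter gave 4 each, with ITGA2 added; leaving out 1 library gave 0 to 2, with 0 to 1 higher and 0 to 2 lower. The 21 calls of the further lists were 39 without a filter, 58 with the block, 11 with the offset, 3 without replicate 1 of both groups and 4 to 13 with 1 library left out. Fewer libraries entered the fits that leave some out; for the other settings the cause was not tested. The block follows neighbouring serial numbers in the labels. Signs changed with the offset for ITGB1 (-0.05), ITGB5 (-0.01), TLN2 (0.17), FERMT2 (0.02), PARVA (-0.03) and PTK2 (0.01), and without replicate 1 of both groups for ZYX (0.00) and PARVA (-0.04). With 1 library left out the range spanned or reached 0 for ITGA1 (-0.25 to 0.02), ITGA3 (-0.39 to 0.00), ITGAV (-0.19 to 0.00), ITGB2 (-1.09 to 0.16), ITGB5 (-0.03 to 0.15), TLN2 (-0.10 to 0.01), ZYX (-0.11 to 0.07), FERMT1 (-0.06 to 0.32), FERMT2 (-0.09 to 0.03), PARVA (-0.05 to 0.13), TNS3 (-0.04 to 0.27) and SRC (-0.15 to 0.15). The 5 untested genes had too few reads to pass the filter.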
